A study of Arabidopsis thaliana with 12 samples.

Results

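The effect of the cs26 mutation on leaf transcripts of Arabidopsis thaliana depended on the photoperiod, and for many genes it ran in opposite directions in long and in short days. That dependence is described here as a difference of effects, which is cs26 minus wild type in short days, minus the same difference in long days, on the log2 scale. All 12 of the 12 arrays of the study entered it, 3 arrays in each of 4 groups of genotype and photoperiod. The wild type was the accession Col-0, and the mutant was the single line SALK_034133, an insertion line of the gene CS26 in the Col-0 background. Long-day plants had 16 h of light and 8 h of dark and were 3 weeks old at harvest, and short-day plants had 8 h of light and 16 h of dark and were 5 weeks old. All plants grew in soil, at 20 °C by day and 18 °C by night, and the design text calls the 3 arrays of a group biological replicates. Photoperiod and age changed together, so they cannot be told apart in any value below. The hour of harvest is not given in the sources used here.

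CS26 encodes a chloroplast enzyme that makes S-sulfocysteine from thiosulfate and O-acetylserine, in the same protein family as the enzymes that make cysteine. Chloroplasts both carry out photosynthesis and produce reactive oxygen, and their redox state is signalled to the nucleus, where it alters genes for photosynthesis, defence and cold tolerance. Day length sets how long leaves photosynthesise and how much starch they must store for the night, and in Arabidopsis long days also hasten flowering and leaf ageing.

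Expression was measured on Affymetrix ATH1 arrays, and each value is the authors' log2 signal of a probe set after RMA, a method that corrects background and makes the arrays' distributions alike. Array medians lay between 5.42 and 5.52, and single values between 3.12 and 14.27. One unit is a 2-fold difference, and dim probe sets are compressed towards the background. Of 22810 probe sets, 22746 remained without the Affymetrix controls, and 13513 of these name 1 gene. No probe set names CS26 alone, so its level could not be used to check the genotype labels. RCA, the Rubisco activase gene of green leaf cells, was bright on all 12 arrays, between 13.03 and 14.06. A pair of arrays stood apart from their replicates. On replicate 2 of long-day wild type the 25S rRNA control probe set read 9.64, against 4.53 to 5.12 on the other arrays, and replicate 2 of cs26 in short days deviated most from its group, with an SD over probe sets of 0.208 against 0.104 to 0.155 on the others. The 24 Bacillus control probe sets, which measure spiked RNA and not the plant, averaged 7.10 in wild type and 6.60 in cs26 in long days, and 5.68 and 5.94 in short days. Their mean difference of effects was 0.745 and lay above 0 for 24 of 24, and what part such a difference has in the results was not tested. The 18 hybridisation controls, added later in the procedure, had a mean difference of 0.250.

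A difference of effects passed the test for 6268 of the 22746 probe sets (27.6%; limma, Benjamini-Hochberg adjusted p under 0.05, n = 3 arrays per group). In 3370 of them (14.8%) the effect of cs26 was higher in short days, and in 2898 (12.7%) it was lower. The difference reached at least 1 log2 unit in 2508 (11%), higher in 1274 (5.6%) and lower in 1234 (5.43%). The effect of cs26 itself passed in 5597 probe sets in long days (24.6%) and in 3806 in short days (16.7%). Without both arrays that stand apart, 5447 differences passed. Over all probe sets, the root mean square of the log2 effect was 0.523 in long days and 0.366 in short days, and that of the difference of effects was 0.755, with a median standard error (SE) of 0.157. The share of passing probe sets rose with brightness, from 4.92% in the dimmest of 3 equal classes to 32.3% in the middle and 45.5% in the brightest class.

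The called differences were sorted by what cs26 did in each photoperiod. In 976 probe sets (4.29% of those tested) cs26 was above wild type in long days and below it in short days, with a median effect of 0.98 and then -0.71. The opposite crossing, below in long days and above in short days, was found in 568 (2.5%), with medians of -0.67 and 0.57. Together 1544 probe sets (6.79%) were called in opposite directions. Another 1514 (6.66%) fell in long days and were not called in short days, 1194 (5.25%) rose in long days only, 766 (3.37%) rose in short days only and 434 (1.91%) fell in short days only. An effect in the same direction in both photoperiods but of unequal size was rare, with 27 rising (0.119%) and 41 falling (0.18%). The remaining 748 (3.29%) had a called difference although the effect passed in neither photoperiod. Replicate 1 of wild type in short days mattered most for the second crossing class and for the class rising in short days only, which held 368 and 479 probe sets without it.

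**Figure D1:**
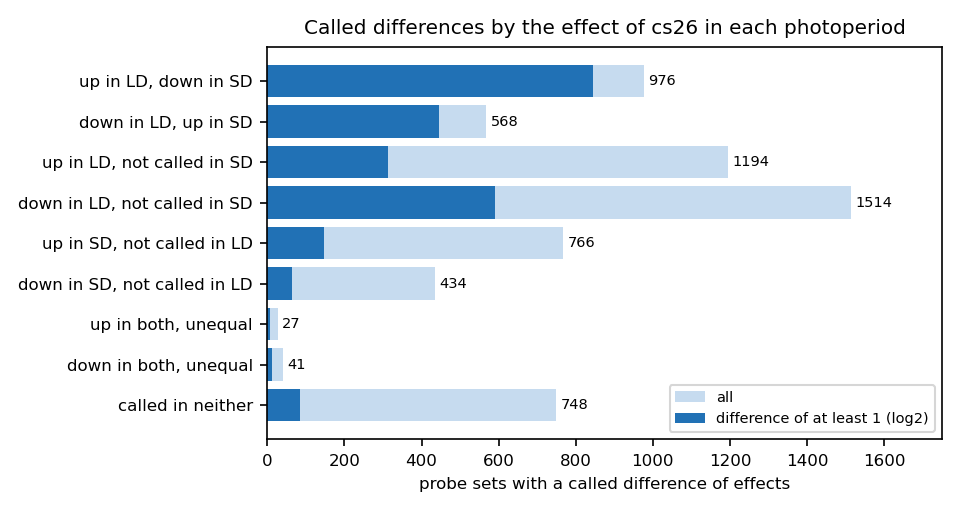
Number of probe sets (horizontal axis) with a called difference of effects, by the direction of the cs26 effect in long days (LD) and in short days (SD). The pale bars are all called probe sets and the dark bars those with a difference of at least 1 on the log2 scale, and 846 of the 976 probe sets that rose in LD and fell in SD were of that size, against 591 of the 1514 that fell in LD only.

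**Figure D2:**
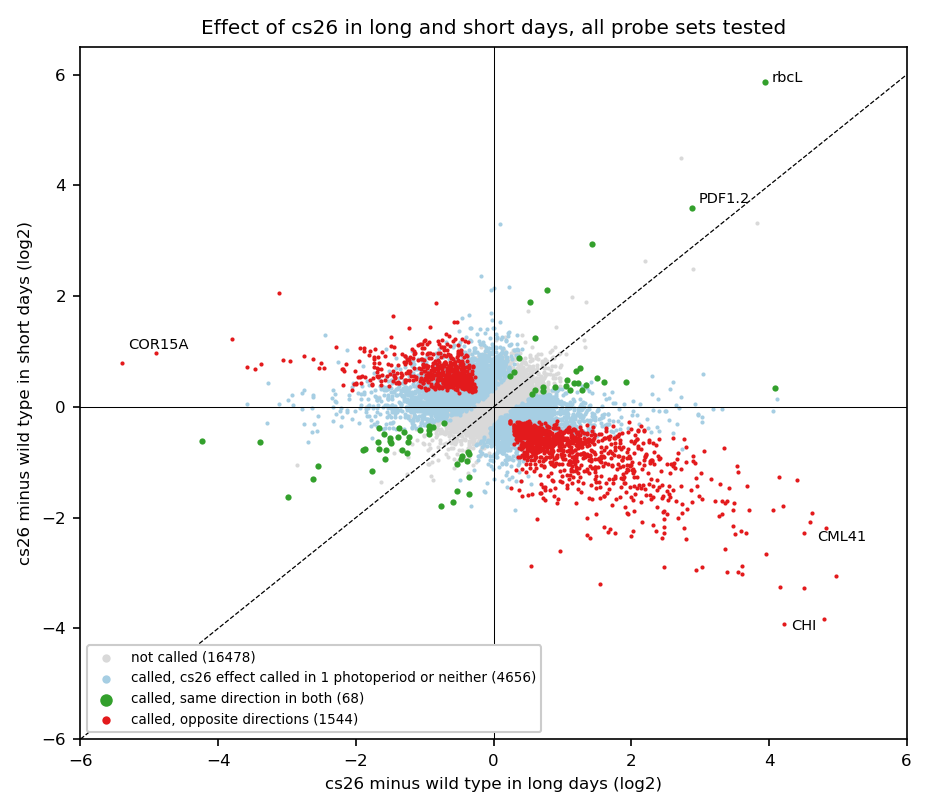
Effect of cs26 in long days (horizontal axis) against that in short days (vertical axis), both as log2 of cs26 minus wild type, 1 point per probe set, with genes called in opposite directions in red, called in the same direction in green, other called differences in blue and the dashed line marking equal effects. CHI lies at 4.22 and -3.93 and COR15A at -5.4 and 0.80, on opposite sides of the line.

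The same values read along the photoperiods show that short-day and long-day leaves differed in other ways in wild type than in the mutant. Short-day leaves were also older, so a response here is one to photoperiod and age together. Short-day against long-day leaves differed in 10186 probe sets in wild type (44.8%) and in 9849 in cs26 (43.3%), and 6245 were called in both genotypes. Of those 6245, the direction was the same in 5087 and opposite in 1158. Of the probe sets called in wild type, 4262 also had a called difference of effects, a condition that selects unlike responses. In these the response of cs26 had the opposite sign in 2160, was smaller with the same sign in 1320 and was larger in 782. These counts take the sign of the cs26 response whether or not it was called, and in 1651 of the 4262 it was not called. In the class that rose in long days and fell in short days the median response, short days minus long days, was 0.90 in wild type and -0.88 in cs26. By the sorting rule, the brightest group of this class can only be cs26 in long days or wild type in short days. It was the former for 562 of the 976 members and the latter for 414.

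The largest differences belonged to genes that cs26 raised in long days and lowered in short days. CHI (AT2G43570), which encodes a chitinase, an enzyme that cleaves fungal cell wall chitin, had the largest of all genes named alone. Its log2 levels were 6.27, 5.95 and 6.22 in long-day wild type and 10.38, 10.39 and 10.33 in long-day cs26. In short days they were 11.19, 11.05 and 11.23 in wild type and 7.49, 6.72 and 7.47 in cs26. The genotypes did not overlap in either photoperiod, which was a condition for naming a gene of this class and held for 15.5% of all probe sets. Wild type in short days stood as high as the mutant in long days. The effect was 4.22 in long days and -3.93 in short days, a difference of -8.15 ± 0.241 (SE; limma adjusted p = 1.74e-10).

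CML41, a calmodulin-like calcium sensor, read 4.57, 4.83 and 4.60 in long-day wild type and 9.40, 8.97 and 9.43 in long-day cs26. In short days it read 8.88, 8.49 and 8.54 in wild type and 6.65, 6.35 and 6.68 in cs26. Its effects were 4.60 and -2.08, and the difference was -6.68 ± 0.209 (SE; limma adjusted p = 2.84e-10). As for CHI, short-day cs26 lay between long-day wild type and the other groups. SAL2, of the family of phosphatases that break down phosphoadenosine phosphate, read 5.07 to 5.22 in long-day wild type, 8.40 to 8.95 in long-day cs26, 8.49 to 8.91 in short-day wild type and 5.53 to 6.04 in short-day cs26. Its difference was -6.53 ± 0.226 (SE).

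The other 7 of the 10 largest in this class carry only a locus name here. They were AT3G01830, AT2G18690, AT3G47480, AT5G39670, AT2G44240, AT1G57630 and AT5G52760, with differences from -6.79 for AT3G01830 to -5.57 for AT5G52760. AT2G44240 was the most symmetric of them. Its levels were 4.31, 4.01 and 4.11 in long-day wild type and 4.34, 4.29 and 4.21 in short-day cs26. They were 7.27, 6.90 and 7.08 in long-day cs26 and 7.21, 7.29 and 7.20 in short-day wild type. The long-day mutant and the short-day wild type overlapped, as did the remaining pair of groups. The effects of 2.94 and -2.95 were of nearly equal size. Long-day wild type and short-day cs26, at 4.01 to 4.34, were near the floor of the array, where a difference between them could have been hard to see. How alike these low groups and the sizes of the effects are is therefore uncertain.

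The salicylic acid list, the hormone pathway of defence against biotrophic pathogens, had 4 of its 26 genes measured. All 4 had a called negative difference, with a median of -3.38, against 24.4% of the 13355 genes named alone being called in either direction and a median over them of 0.0067. GRX480, a glutaredoxin that binds TGA factors of the salicylic acid pathway, read 5.65, 5.84 and 5.50 in long-day wild type, 8.17, 8.34 and 8.13 in long-day cs26, 8.31, 8.29 and 8.61 in short-day wild type and 6.88, 6.61 and 7 in short-day cs26. The difference was -4.12 ± 0.180 (SE; limma adjusted p = 4.78e-09). UGT76B1, which glucosylates salicylic acid and the immune signal N-hydroxypipecolic acid, moved mostly through the short-day groups. Wild type rose from 4.39 to 5.01 in long days to 7.61 to 7.88 in short days, while cs26 went from 5.41 to 5.86 down to 5.10 to 5.16. Its effects were 0.97 and -2.61. AT5G52810 had effects of 1.87 and -1.30. SAG101, a partner of EDS1 in immune signalling by TIR-type receptors, had a difference of -1.04 (limma adjusted p = 0.0153) with an effect called in neither photoperiod, and without both arrays that stand apart it was -0.745 (limma adjusted p = 0.0703).

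**Figure D3:**
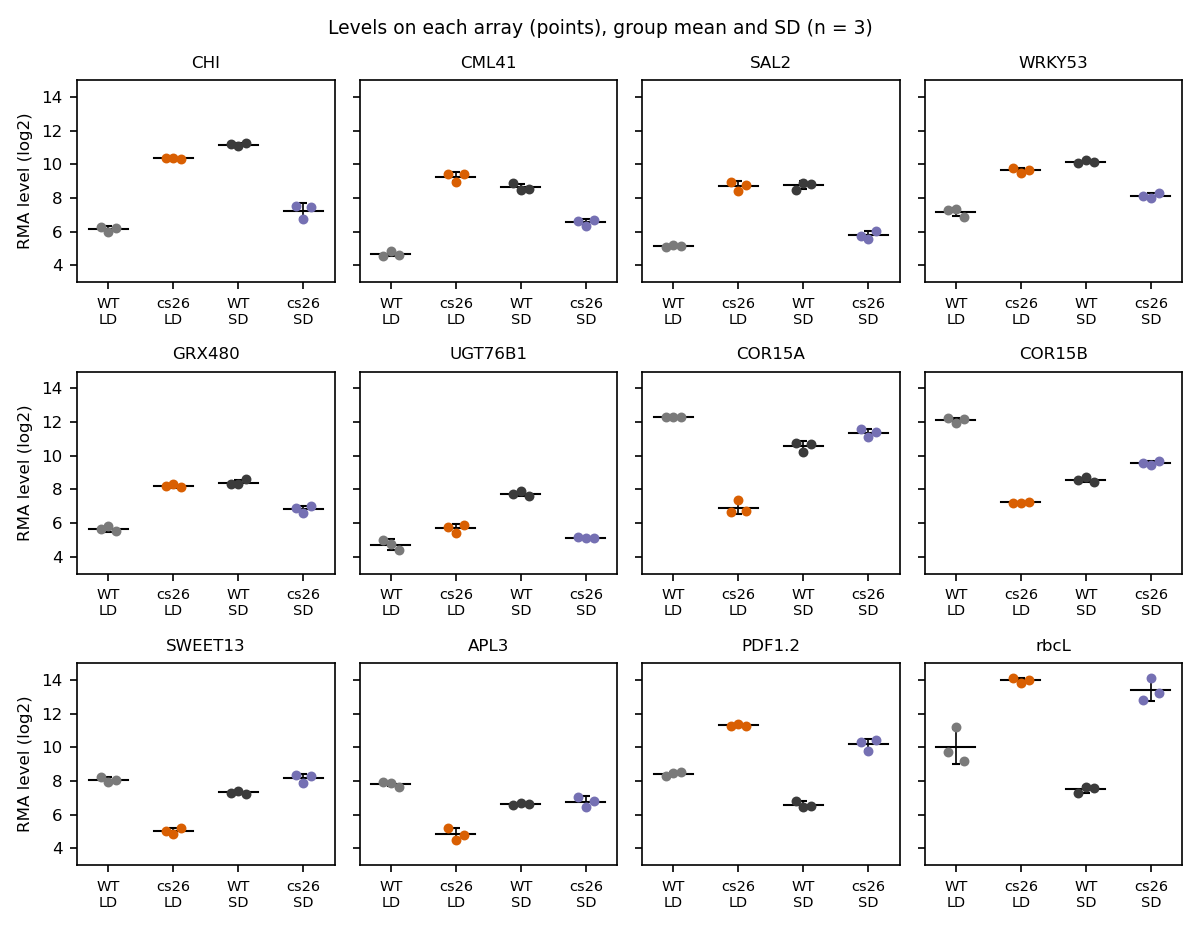
Log2 level (vertical axis) of selected genes on each of the 12 arrays, by group, with 1 point per array, a bar at the group mean and error bars of 1 SD. For CHI and CML41 the high groups are cs26 in long days and wild type in short days, and for COR15A and COR15B the low group is cs26 in long days.

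Calmodulin-like calcium sensors shared the direction of CML41. Of the 14 calmodulin-like (CML) genes on the list 8 were measured, 6 had a called negative difference, none a called positive one, and the median was -1.39. In long days 5 rose and none fell, and in short days 4 fell and none rose. The background in those directions was 12.7% of probe sets with a called negative difference, 12.8% rising in long days and 7.84% falling in short days. CML37, CML38 and CML23 also crossed, with long-day effects of 0.88, 0.69 and 1.14 and short-day effects of -1.61, -1.40 and -0.61. CML38 reached 8.89 to 9.07 in short-day wild type, above all other groups, and read 5.12 to 5.43 in long-day wild type, 5.77 to 6.12 in long-day cs26 and 7.03 to 7.97 in short-day cs26. STZ, a zinc-finger repressor induced by stress and also known as ZAT10, read 6.25 to 6.43 in long-day wild type and 9.29 to 9.53 in long-day cs26. In short days it was high in both genotypes, 10.63 to 10.93 in wild type and 9.84 to 10.09 in cs26, so its effects were 3.06 and -0.80 and its difference was -3.86 ± 0.150 (SE).

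The senescence and WRKY lists overlap in WRKY53 and WRKY6. Of 3 senescence genes 2 were called in opposite directions, rising in long days and falling in short days, and so were 3 of 7 WRKY genes, against 6.79% of all probe sets in either order. WRKY53, which promotes leaf ageing, read 7.26, 7.31 and 6.88 in long-day wild type, 9.75, 9.48 and 9.65 in long-day cs26, 10.05, 10.25 and 10.14 in short-day wild type and 8.11, 7.99 and 8.28 in short-day cs26. The difference was -4.50 ± 0.175 (SE; limma adjusted p = 1.99e-09). WRKY6 and WRKY47 were high in 1 group only. WRKY47 read 7.33 to 7.85 in long-day cs26 and 4.34 to 5.61 in the other groups, and WRKY6 read 6.92 to 6.95 against 4.65 to 5.73. Their short-day effects were small but called, -0.58 and -0.32. Of the 7 WRKY genes measured of 72, 4 had a called negative difference and ZAP1 a positive one of 1.12, against 12.7% and 14.8% of all probe sets. The third senescence gene measured of 17 was SAG29, with a difference of 0.20 (limma adjusted p = 0.590).

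The autophagy list includes the ATG8 genes, whose proteins coat the membranes that enclose cell contents for breakdown. Of 11 genes measured of 40, 7 fell in short days, where 7.84% of all probe sets fell, 4 were not called and none rose. In long days 1 rose and 2 fell. A called negative difference was found in 3 and a positive one in none, a share close to the 27.6% of all probe sets called in either direction. ATG8E read 6.44 to 6.64 in long-day wild type, 7.72 to 8.06 in long-day cs26, 8.58 to 8.94 in short-day wild type and 7.09 to 7.93 in short-day cs26. Its effects were 1.39 and -1.19 and its difference was -2.58 ± 0.269 (SE). APG8A, also of the ATG8 family, had a difference of -1.40. APG8H, another member, had -0.51 (limma adjusted p = 0.0308), which was -0.45 (limma adjusted p = 0.0761) without replicate 1 of long-day wild type, -0.487 (0.0675) and -0.502 (0.0576) without replicates 1 and 2 of short-day wild type, and -0.497 (0.0566) and -0.482 (0.0657) without replicates 1 and 2 of long-day cs26. ATG8D had -0.74 (limma adjusted p = 0.0513).

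The cold-regulated genes crossed the other way. COR15A and COR15B, neighbouring genes that encode chloroplast proteins protecting membranes during freezing, had the largest positive differences among genes named alone. COR15A read 12.31, 12.32 and 12.32 in long-day wild type and 6.65, 7.36 and 6.73 in long-day cs26. In short days it read 10.77, 10.23 and 10.70 in wild type and 11.58, 11.10 and 11.41 in cs26. The long-day mutant stood far below the other groups. The effects were -5.4 and 0.80, and the difference was 6.2 ± 0.269 (SE; limma adjusted p = 4.48e-09). COR15B read 12.21, 11.97 and 12.18 in long-day wild type, 7.21, 7.21 and 7.25 in long-day cs26, 8.56, 8.74 and 8.43 in short-day wild type and 9.57, 9.42 and 9.67 in short-day cs26. From long to short days wild type fell by 1.75 for COR15A and by 3.54 for COR15B, whereas cs26 rose by 4.45 and by 2.33.

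Of the 4 cold, drought and abscisic acid genes measured of 26, all 4 fell in long days, against 11.8% of all probe sets. A called positive difference was found in 3, against 14.8%, and the median difference was 4.1. COR47, a dehydrin that protects cells against water loss and cold, read 10.79 to 11 in long-day wild type, 8.41 to 8.69 in long-day cs26, and 9.54 to 9.85 and 9.61 to 9.87 in wild type and cs26 in short days. Its effect was -2.33 in long days and 0.0033 in short days. LTI30, another dehydrin, did not share the pattern. It fell in both photoperiods, by 0.95 and by 0.78, and its difference of 0.17 did not pass (limma adjusted p = 0.686).

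The remaining genes of the second crossing class were less extreme. TBL26, of the trichome birefringence-like family that acetylates cell wall polysaccharides, read 10.31 to 10.61 in long-day wild type, 6.80 to 6.93 in long-day cs26, 9.47 to 9.50 in short-day wild type and 10.14 to 10.25 in short-day cs26, a difference of 4.3 ± 0.120 (SE). AT1G78070, AT1G51090, AT1G11700, AT1G57590 and AT5G43150 had differences between 2.82 for AT5G43150 and 4.16 for AT1G78070. AT1G11700 differed from these in its order of levels. Its wild type fell from 8.45 to 8.70 in long days to 4.77 to 5.19 in short days, the lowest of the 4 groups, while cs26 changed from 6.02 to 6.29 to 5.46 to 5.90. UGT76E11, a UDP glycosyltransferase, was the most even, with effects of -1.46 and 1.64.

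Starch and sugar genes mostly had positive differences. Of 7 measured of 34, 5 were called higher and AMY1 lower, with a median of 1.88, against 14.8% and 12.7% of all probe sets. The effects were called in opposite directions in 4, against 6.79%. SWEET13, a sucrose exporter, read 8.20, 7.93 and 8.07 in long-day wild type, 5.04, 4.82 and 5.17 in long-day cs26, 7.30, 7.40 and 7.24 in short-day wild type and 8.35, 7.87 and 8.27 in short-day cs26. The difference was 3.91 ± 0.185 (SE; limma adjusted p = 9.71e-09). APL3, for a large subunit of the enzyme that commits glucose to starch by making ADP-glucose, read 7.66 to 7.91 in long-day wild type and 4.49 to 5.20 in long-day cs26, and 6.57 to 6.66 and 6.42 to 7.05 in short days. Its short-day groups overlapped, and the difference of 3.12 came with a long-day effect of -2.99. The starch-branching enzyme gene SBE2.2 and the disproportionating enzyme gene DPE1, which acts on maltotriose from starch breakdown, crossed as SWEET13 did, with differences of 1.88 and 1.33, and were named after their values were seen. PWD, phosphoglucan water dikinase, which phosphorylates starch before its breakdown, had a difference of 2 ± 0.383 (SE). AMY1, an alpha-amylase gene, ran the other way. It stood out in short-day wild type, at 8.47 to 8.60 against 5.27 to 6.09 in the other groups, with effects of 0.55 and -2.87.

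GI, the only clock and day-length gene measured of 39, links the circadian clock to flowering in long days. It read 7.79, 7.81 and 7.84 in long-day wild type, 6.84, 6.81 and 6.65 in long-day cs26, 5.23, 4.91 and 5.46 in short-day wild type and 5.27, 6.39 and 5.51 in short-day cs26. The long-day groups did not overlap and the short-day groups did. The effect was -1.05 in long days and 0.52 in short days (limma adjusted p = 0.144), and the difference was 1.57 ± 0.319 (SE; limma adjusted p = 0.00269). GI cycles over the day, so its level depends on the hour of harvest.

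The phenylpropanoid list covers anthocyanin synthesis, which makes the red pigments of stressed leaves. Of 5 genes measured of 20, 4 fell in long days and the same 4 had a called positive difference, against 11.8% of all probe sets falling in long days and 14.8% called higher. The fifth, AT5MAT, an anthocyanin malonyltransferase gene, had an effect of -0.28 in long days (limma adjusted p = 0.172) and a difference of 0.24 (0.422). DFR, dihydroflavonol reductase, read 8.09 to 8.60 in long-day wild type, 5.99 to 6.65 in long-day cs26, 4.28 to 4.72 in short-day wild type and 4.22 to 4.54 in short-day cs26. Its difference was 2.04 ± 0.262 (SE), with a short-day effect of -0.09. AT4G14090 and UF3GT, an anthocyanin glycosyltransferase gene, had differences of 1.80 and 1.61 and lay between 4.86 and 5.4 on all short-day arrays. DFR, AT4G14090 and UF3GT were thus dim in short days, where a lower level in cs26 could have been hard to see. UGT78D2, a glucosyltransferase acting on flavonols and anthocyanins, did not drop in short days and crossed, with effects of -0.38 and 0.54.

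Among jasmonate and ethylene genes, the defensin PDF1.2 was a marker that did not cross. It read 8.26, 8.46 and 8.51 in long-day wild type and 11.26, 11.37 and 11.25 in long-day cs26, and 6.80, 6.43 and 6.5 against 10.29, 9.78 and 10.41 in short days. It rose by 2.88 and by 3.58. Its difference of 0.70 (limma adjusted p = 0.0271) was between 0.575 (0.0663, without replicate 3 of short-day cs26) and 0.683 (0.0504, without replicate 1 of long-day cs26) when it lost the call. That happened also without replicate 3 (0.678) of long-day cs26, replicate 2 (0.675) or 3 (0.650) of long-day wild type, replicate 2 (0.627) or 3 (0.662) of short-day wild type, or replicate 1 (0.635) of short-day cs26. PDF1.2b, its near copy on a probe set that can also bind related transcripts, rose by 2.90 and by 2.49, with a difference of -0.41 (limma adjusted p = 0.355). MYC4, a transcription factor of the jasmonate response, fell by 1.5 in long days and had a difference of 1.97 ± 0.271 (SE). EIN3, the central factor of ethylene signalling, had a difference of 0.48 (limma adjusted p = 0.211). Of the 5 genes measured of 24, 2 had a called positive difference and none a negative one, against 14.8% and 12.7% of all probe sets.

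In some genes the effect was seen in long days and not in short days. AT2G33850 was the clearest case. It read 8.06, 8.04 and 7.81 in long-day cs26 and between 3.64 and 3.98 on the 9 arrays of the other groups. Its effect was 4.05 in long days and -0.08 in short days, and the difference was -4.13 ± 0.119 (SE; limma adjusted p = 1.32e-10). PYK10, a beta-glucosidase gene best known from roots, likewise read 6.64, 6.63 and 6.53 in long-day cs26 and between 3.71 and 4.15 elsewhere, a difference of -2.71 ± 0.142 (SE). Both were near the floor of the array in short days, where a lower level could not have been seen. AT2G04460 and AT4G22490 shared that pattern, with differences of -3.35 and -3.23. AT1G72900 did not. It read 4.73 to 4.95 in long-day wild type and 7.48 to 8.10 in long-day cs26, but 6.87 to 7.38 in short-day wild type and 6.90 to 6.99 in short-day cs26, so wild type reached the mutant's level in short days. AT5G57785 and UGT87A2, a UDP glycosyltransferase gene, had differences of -3.12 and -3.09.

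Among genes that fell in long days only, AT1G80130 read 9.86 to 10.20 in long-day wild type, 6.36 to 6.59 in long-day cs26, and 8.34 to 8.56 and 8.37 to 8.54 in short days, where the genotypes overlapped. Its difference was 3.63 ± 0.149 (SE). AT5G22460 differed in that it was low in 3 groups, at 5.44 to 6.06, and high in long-day wild type, at 9 to 9.14. AT1G15410 and AT1G22160 had differences of 3.06 and 3.03.

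Effects called in short days only were smaller. AT1G53540, on the heat shock list, read 6.99, 6.64 and 7.05 in short-day cs26 and between 4.16 and 4.71 on all arrays of the other groups. Its difference was 2.55 ± 0.184 (SE; limma adjusted p = 4.73e-07). Long-day wild type was dim, at 4.35 to 4.57, so a lower level in long-day cs26 could have been hard to see. AT5G51440, on the same list, rose in both photoperiods, by 0.78 in long days and by 2.12 in short days, with a difference of 1.34 ± 0.217 (SE). Heat shock genes encode chaperones that keep other proteins folded. Of the 6 measured of 21, 4 rose in short days and 2 in long days, against 8.89% and 12.8% of all probe sets, and none fell. A called difference was found in 2, against 27.6%. Cpn60beta2, a subunit of the chloroplast chaperonin that folds Rubisco and other proteins, read 9.39 to 9.55 on all 6 long-day arrays, 8.84, 8.97 and 9.50 in short-day wild type and 10.40, 11.47 and 10.52 in short-day cs26. Its difference was 1.74 ± 0.332 (SE; limma adjusted p = 0.00177).

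AT5G66740 and AT1G10900 also rose in short days with no called effect in long days, with differences of 1.46 and 1.62. AT5G66740 read 3.72 to 3.95 on the long-day arrays, near the floor, where a lower level could not have been seen. AT1G10900 had a long-day effect of -0.50 (limma adjusted p = 0.122), and its genotypes did not overlap there. AT1G48650 had a difference of 1.66 ± 0.481 (SE; limma adjusted p = 0.0215), with 8.25 on replicate 2 of short-day cs26 against 6.63 and 7.18 on its other arrays. Its call was lost without replicate 1 of long-day wild type (1.55, limma adjusted p = 0.0547), replicate 2 of short-day wild type (1.47, 0.0552) or replicate 2 of long-day cs26 (1.49, 0.0522). Those that fell in short days only included AT3G46770, which read 5.48 to 5.78 in short-day wild type and 4.06 to 4.51 on all other arrays, a difference of -1.64. AT5G37540, AT2G30930, AT5G52740 and AT4G25900 had differences of -1.74, -1.66, -1.46 and -1.41. In long-day wild type AT3G46770 read 4.24 to 4.3, near the floor, where a lower level in cs26 could not have been seen. AT5G37540 and AT5G52740 were also dim there, at 4.52 to 4.87 and 4.64 to 4.87, so a fall could have been hard to see.

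**Figure D4:**
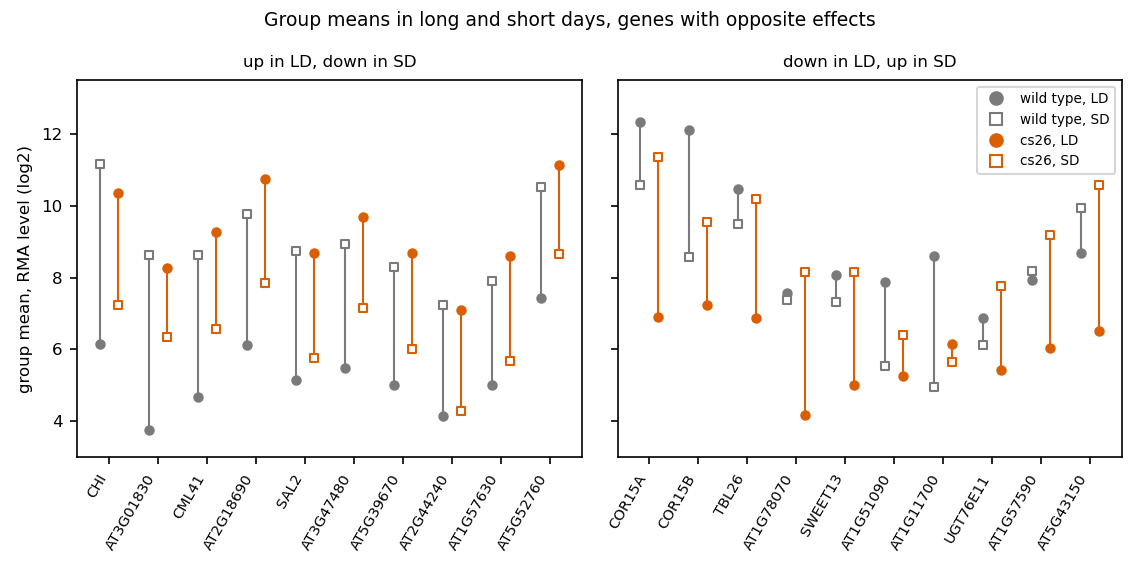
Group mean log2 level over 3 arrays (vertical axis) of the 10 genes with the largest difference in each crossing class (horizontal axis), in grey for wild type and orange for cs26, with filled circles for long days (LD), open squares for short days (SD) and a line joining the photoperiods of a genotype. In the left panel every grey square lies above its circle and every orange square below it, and in the right panel COR15B falls by 3.54 in wild type and rises by 2.33 in cs26.

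Of 12 nuclear photosystem, antenna and electron transport genes measured of 49, 6 had a called positive difference, 6 were not called and none had a negative one. The median over the 12 was 0.49. In long days 2 fell and none rose, and in short days 5 rose and none fell. The background was 14.8% with a called positive difference, 11.8% falling in long days and 8.89% rising in short days. CRR21, a factor that edits a plastid transcript of the NDH complex, read 6.27 to 6.78 in long-day cs26 against 7.04 to 7.08 in wild type, and 8.06 to 8.36 against 6.93 to 7.22 in short days. The difference was 1.62 ± 0.179 (SE; limma adjusted p = 2.23e-05). LHCB4.2, an antenna protein of photosystem II, read 10.51 to 10.79 in long-day cs26 against 11.94 to 12.06 in wild type, and the genotypes overlapped in short days at 13.11 to 13.34. Its difference was 1.25.

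SPPA, a thylakoid protease, and CYTC6A, a cytochrome of the thylakoid lumen, had differences of 0.70 (limma adjusted p = 0.0321) and 0.61 (0.0337) that depended on single arrays. For SPPA the adjusted p was 0.0533 (0.725) and 0.0794 (0.635) without replicates 1 and 2 of long-day wild type. It was 0.0829 (0.582) and 0.0702 (0.662) without replicates 1 and 2 of short-day wild type. It was 0.0691 (0.662) and 0.0752 (0.657) without replicates 2 and 3 of long-day cs26, 0.0616 (0.557) without replicate 2 of short-day cs26, and 0.132 (0.488) without both arrays that stand apart. For CYTC6A it was 0.0809 (0.557) and 0.0551 (0.627) without replicates 2 and 3 of long-day wild type, 0.0629 (0.613), 0.0591 (0.613) and 0.0567 (0.603) without replicates 1, 2 and 3 of short-day wild type, 0.0703 (0.470) without replicate 1 of long-day cs26, and 0.0759 (0.5) and 0.0731 (0.575) without replicates 1 and 3 of short-day cs26.

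Carbon fixation and photorespiration gave 5 called positive differences among 6 genes measured of 28, against 14.8% of all probe sets called higher. The median was 0.62 and none was negative. PRK, phosphoribulokinase, which regenerates the acceptor of carbon dioxide, read 12.80 to 13.01 and 12.59 to 12.75 in wild type and cs26 in long days, and 11.45 to 11.88 and 11.99 to 12.66 in short days. Its difference was 0.87 ± 0.227 (SE; limma adjusted p = 0.0121). HPR, hydroxypyruvate reductase of photorespiration, crossed with effects of -0.29 and 0.33. AT1G11860 and AT1G80380, on the same list, had differences of 0.75 and 0.62. Among 10 chlorophyll genes of 28, 3 had a called positive difference and none a negative one. The share called was close to the 27.6% of all probe sets called in either direction, and the median of 0.015 was close to that of all named genes. The 3 called were AT1G74470 (0.87), PORB (0.81), a protochlorophyllide reductase of chlorophyll synthesis, and NOL (0.56), a reductase of chlorophyll b breakdown. CHLM, a methyltransferase of chlorophyll synthesis, had -0.36 (limma adjusted p = 0.0642).

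Genes of the plastid genome had 69 of 129 members measured, and 20 of them had a called positive difference and none a negative one. Over all probe sets 27.6% were called, 14.8% higher and 12.7% lower, so the share called in either direction was close to the background. The median difference was 0.67, and 49 of the 69 were not called. Replicates of plastid genes scattered more than those of other genes, with a median residual SD of 0.394 against 0.134 over all named genes. In long days 19 fell and 6 rose (background 11.8% and 12.8%), and in short days 14 rose and 6 fell (8.89% and 7.84%). rpl16, a ribosomal protein gene, read 10.63, 10.77 and 10.38 in long-day wild type, 8.86, 7.85 and 7.21 in long-day cs26, 7.21, 7.6 and 7.98 in short-day wild type and 7.48, 8.25 and 7.72 in short-day cs26. Only the long-day wild type stood apart, and the difference was 2.84 ± 0.481 (SE; limma adjusted p = 0.00074). The ribosomal protein genes rpl22 and rps3 had differences of 2.30 and 2.02, and rps16 rose in short days only, with 1.74. psbT, a small subunit of photosystem II, had 2.06, and 1.36 (limma adjusted p = 0.0547) without both arrays that stand apart.

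rbcL, the large subunit of Rubisco, was among the 6 plastid genes that rose in long days. It read 9.73, 11.18 and 9.19 in long-day wild type and 14.09, 13.83 and 13.99 in long-day cs26, near the highest value of any probe set (14.27). In short days it read 7.26, 7.65 and 7.6 in wild type and 12.79, 14.09 and 13.24 in cs26. The genotypes did not overlap in either photoperiod, which was again a condition for naming the gene. Signals so near the top can be compressed, so the size of the effects and of their difference is uncertain for rbcL. On the deposited scale it rose by 3.94 and by 5.87, and the difference of 1.93 ± 0.587 (SE; limma adjusted p = 0.0271) was lost without replicate 1 of short-day wild type (1.81, limma adjusted p = 0.0661), replicate 2 (1.86, 0.0549) or 3 (1.94, 0.0523) of long-day cs26, or replicate 2 of short-day cs26 (1.58, 0.0507). Replicate 2 of long-day wild type held the highest rbcL value of its group and the 25S rRNA signal described above. Without it and replicate 2 of short-day cs26 the difference was 1 (limma adjusted p = 0.0164). psbJ, of photosystem II, and rpl36, of the ribosome, fell in both photoperiods, with differences of 1.11 and 1.32. For rpl36 the call was lost without replicate 2 of long-day wild type (1.15, limma adjusted p = 0.0534), replicate 1 of short-day wild type (1.19, 0.0537) or both arrays that stand apart (1.02, 0.0902). GLC, a nuclear gene, also fell in both, by 1.67 and by 0.38, and AT5G55180 rose in both, by 1.92 and by 0.44.

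**Figure D5:**
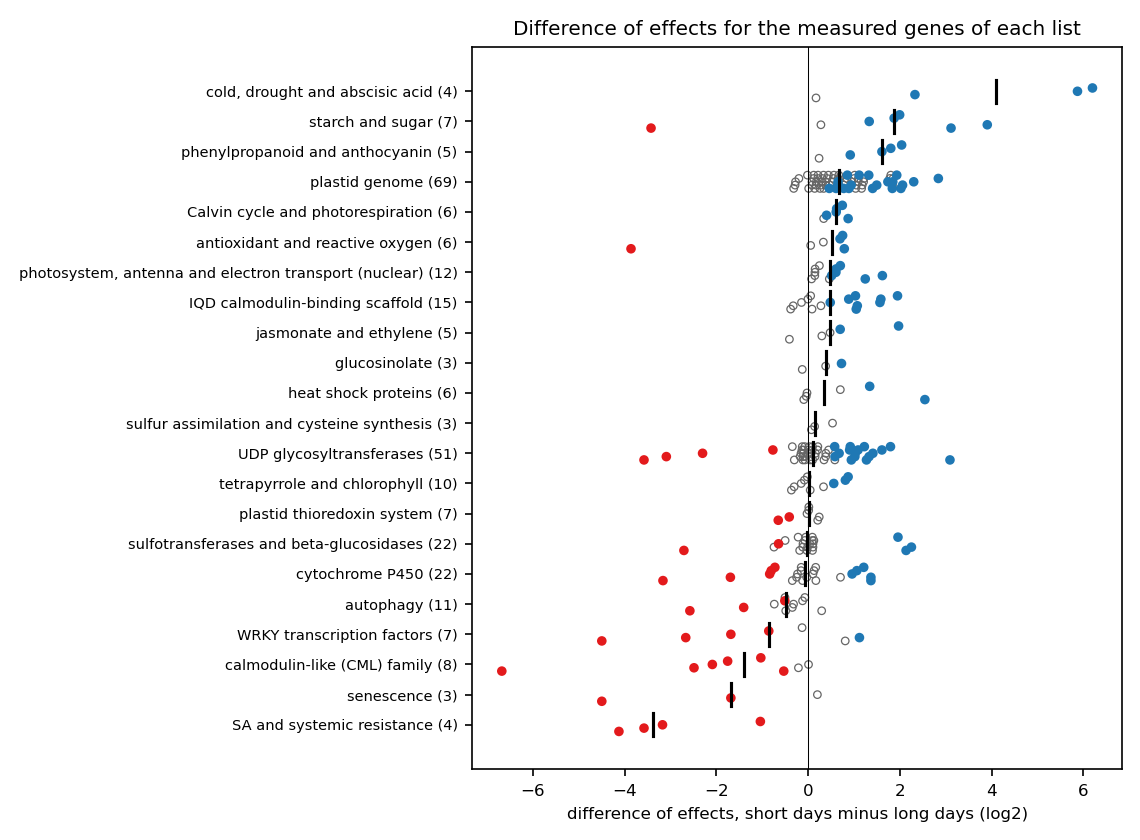
Difference of effects (horizontal axis, log2) of each measured gene in selected gene lists, with called genes filled (blue above 0, red below), other genes open, the list median as a bar and the number measured in parentheses. Salicylic acid genes lie from -4.12 to -1.04 and calmodulin-like genes from -6.68 to 0.01, while the 69 plastid genome genes lie from -0.31 to 2.84.

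Of 6 antioxidant and reactive oxygen genes measured of 32, 3 had a called positive difference and STZ a negative one, against 14.8% and 12.7% of all probe sets. SAPX and AT3G11630 were not called. GR and GR1, the organellar and the cytosolic glutathione reductase, and TAPX, the thylakoid ascorbate peroxidase, rose in short days only. Their differences were 0.79, 0.70 and 0.75, and for GR1 the value was 0.603 (limma adjusted p = 0.050016) without both arrays that stand apart. TAPX read 10.14 to 10.27 in short-day cs26 against 9.69 to 9.91 in wild type. Of 7 plastid thioredoxin genes measured of 14, which pass reducing power from photosynthesis to target enzymes, 2 had a called negative difference and none a positive one. This share is close to the 27.6% of all probe sets called in either direction. TY1 had -0.65. TRXF2 had -0.41 (limma adjusted p = 0.0292), which was -0.41 (0.0540) and -0.35 (0.0719) without replicates 1 and 2 of long-day wild type, -0.35 (0.0743) without replicate 1 of short-day wild type, -0.407 (0.0552) and -0.382 (0.0698) without replicates 2 and 3 of long-day cs26, -0.358 (0.0637) without replicate 2 of short-day cs26 and -0.298 (0.134) without both arrays that stand apart. NTRC and THX had 0.24 (limma adjusted p = 0.367) and 0.21 (0.310).

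Sulfur assimilation, the pathway in which the mutated enzyme acts, had 3 genes measured of 34, and none had a called difference in the model with all arrays. SIR, sulfite reductase, had 0.53 ± 0.198 (SE; limma adjusted p = 0.0647), and the ATP sulfurylase genes APS4 and APS3 had 0.14 (0.517) and 0.07 (0.773). At an unadjusted p under 0.05 SIR alone passed, and it gained the call when dim probe sets were left out (limma adjusted p = 0.0495), with array weights (0.0275), with a trended prior (0.0413) and without replicate 3 of short-day wild type (0.69, 0.0085). APS4 and APS3 fell in long days, by 0.30 and by 0.36. Glucosinolates are sulfur-rich defence compounds, and 3 of 26 of their genes were measured. AT2G31790 had a called difference of 0.73, UGT74B1 had 0.38 (limma adjusted p = 0.177) and BCAT4, which starts methionine chain elongation, had -0.13 (0.515).

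Large families split, and close relatives did not always move alike. Of 22 cytochrome P450 genes measured of 240, 5 had a called positive and 5 a called negative difference, against 14.8% and 12.7% of all probe sets. In the CYP71B cluster CYP71B34, CYP71B35 and CYP71B36 are neighbouring genes. CYP71B34 and CYP71B35 both had 1.37, and CYP71B36 had -1.69. CYP71B36 read 4.54 to 4.93 in long-day wild type and 6.05 to 6.70 in long-day cs26, while CYP71B35 read 5.75 to 6.15 and 5.06 to 5.42. CYP71B23 had -3.16. Of 51 UDP glycosyltransferase genes of 64, 16 were called higher and 4 lower, against the same 14.8% and 12.7%, with a median of 0.10. The 4 lower included UGT76B1 and UGT73D1 (-2.30). UGT76B1 and UGT76E11, of the same family, differed in sign, with -3.58 and 3.09.

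IQD genes, which encode calmodulin-binding scaffolds at microtubules and membranes, differed from the CML calcium sensors in direction. Of 15 measured of 32, 8 had a called positive difference and none a negative one, against 14.8% and 12.7% of all probe sets. The median was 0.48. In long days 7 fell and 1 rose, against 11.8% and 12.8%. IQD31 and IQD30 had differences of 1.95 and 1.59. IQD24 crossed, with effects of -0.91 and 0.66 and a difference of 1.57. IQD22 had 1.07, and 0.895 (limma adjusted p = 0.0683) without both arrays that stand apart. Beta-glucosidases and sulfotransferases had 22 of 52 measured, with 3 called higher and 2 lower. The 22.7% called lay below the 27.6% of all probe sets called in either direction. BGLU33, BGLU47 and BGLU40, in contrast to PYK10, had positive differences of 2.25, 2.14 and 1.96. BGLU40 read 5.34 to 6.04 in long-day cs26 and 7.50 to 7.64 in long-day wild type, and 9.21 to 9.43 on all short-day arrays.

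Markers of leaf cell types were measured for 7 of 38 listed genes, and 2 had a called difference. That share is close to the 27.6% of all probe sets called in either direction. TRY, a repressor of trichome formation, had 1.45 (limma adjusted p = 2.92e-04), with effects of -0.48 and 0.97. AUR1, an Aurora kinase of dividing cells, had -0.54 (limma adjusted p = 0.0489). In whole leaves, fewer cells of a type and less RNA per cell cannot be told apart, and the part of cell composition in the results was not tested.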

How the data were processed

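Leaf RNA was isolated with Trizol and a column, and biotin-labelled cRNA from 4 µg was hybridised to ATH1 arrays, 1 array per sample, per the labels' protocols. The deposited values are log2 signals made by the authors with RMA and the affy package, per the submitters' processing notes. Neither the versions nor how many RMA runs were made is given in the sources used here. RMA removes a shift shared by most transcripts.

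All 12 arrays entered 1 model with a mean per group (limma 3.58.1 in R 4.3.3, lmFit and eBayes, 8 residual and 4.32 prior degrees of freedom). Adjustment was by Benjamini-Hochberg over 22746 probe sets, and a call is an adjusted p under 0.05. Errors are the model's SE. The number of arrays limits the precision. The design text calls the replicates biological and does not say how plants were pooled or grown apart, so p-values measure only the spread between these samples.

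The platform annotation gives 13513 probe sets with 1 gene, 503 with several and 8730 with none, and 13436 matched the TAIR10.1 gene table. A gene is represented by its brightest probe set. Named genes are the 10 largest differences in each crossing class, the 6 largest of each other class, with no overlap of the genotypes where called, and up to 4 members of each of the main gene lists. The members, lists and rules were chosen with earlier results of these data known. On simulated data with the real spread, differences were given to 50 of 22746 probe sets at each size. The model called 20% of differences of 0.5 units, 60% of 1 unit, 94% of 2 units and 0.0266% of unchanged probe sets. Far fewer probe sets differed there than the 6268 called here, so the adjusted cut-off was stricter than in the real data. These shares therefore do not carry over to the real calls. Alternatives are given in the closing section. Sequences were not used here.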

Additional observations from a re-analysis of the deposited data

Results flagged for a closer look

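The effect of cs26 on a transcript was compared between the photoperiods by the difference of effects in the limma model, and 6268 probe sets passed at an adjusted p under 0.05. The 107 named genes among them follow, each with its difference on the log2 scale (short days minus long days, 3 arrays per group). Groups of 3 arrays are too small for a test of single outlying arrays. The 10 largest of the class up in long days and down in short days were CHI (-8.15), AT3G01830 (-6.79), CML41 (-6.68), AT2G18690 (-6.53), SAL2 (-6.53), AT3G47480 (-6), AT5G39670 (-5.95), AT2G44240 (-5.89), AT1G57630 (-5.83) and AT5G52760 (-5.57). The 10 largest called the other way were COR15A (6.2), COR15B (5.87), TBL26 (4.3), AT1G78070 (4.16), SWEET13 (3.91), AT1G51090 (3.49), AT1G11700 (3.15), UGT76E11 (3.09), AT1G57590 (2.90) and AT5G43150 (2.82). The 6 largest in each direction called in long days and not in short days were AT2G33850 (-4.13), AT2G04460 (-3.35), AT4G22490 (-3.23), AT5G57785 (-3.12), AT1G72900 (-3.09), UGT87A2 (-3.09), AT1G80130 (3.63), AT5G22460 (3.17), APL3 (3.12), AT1G15410 (3.06), AT1G22160 (3.03) and rpl16 (2.84). The 6 largest in each direction called in short days and not in long days were AT1G53540 (2.55), rps16 (1.74), Cpn60beta2 (1.74), AT1G48650 (1.66), AT1G10900 (1.62), AT5G66740 (1.46), AT5G37540 (-1.74), AT2G30930 (-1.66), AT3G46770 (-1.64), AT5G52740 (-1.46), AT4G25900 (-1.41) and APG8A (-1.40). The 6 largest called in the same direction in both photoperiods were rbcL (1.93), AT5G55180 (-1.48), AT5G51440 (1.34), rpl36 (1.32), GLC (1.29) and psbJ (1.11).

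The genes below come from the gene lists, and those already given are not repeated. The salicylic acid list gave GRX480 (-4.12), UGT76B1 (-3.58), AT5G52810 (-3.17) and SAG101 (-1.04). From the jasmonate and ethylene list came MYC4 (1.97) and PDF1.2 (0.70). Among cold, drought and abscisic acid genes it was called for COR47 (2.33). GI (1.57) was the clock and day-length gene. The starch and sugar list gave AMY1 (-3.42) and PWD (2). From the phenylpropanoid and anthocyanin list came DFR (2.04), AT4G14090 (1.80), UF3GT (1.61) and UGT78D2 (0.92). Among glucosinolate genes it was called for AT2G31790 (0.73). Named from the antioxidant and reactive oxygen list were STZ (-3.86), GR (0.79), TAPX (0.75) and GR1 (0.70). The senescence list gave WRKY53 (-4.50) and WRKY6 (-1.68). From the nuclear photosystem and electron transport list came CRR21 (1.62), LHCB4.2 (1.25), SPPA (0.70) and CYTC6A (0.61). Among tetrapyrrole and chlorophyll genes it was called for AT1G74470 (0.87), PORB (0.81) and NOL (0.56). Named from the Calvin cycle and photorespiration list were PRK (0.87), AT1G11860 (0.75), AT1G80380 (0.62) and HPR (0.61). The plastid thioredoxin system list gave TY1 (-0.65) and TRXF2 (-0.41). From the plastid genome list came rpl22 (2.30), psbT (2.06) and rps3 (2.02). Among calmodulin-like genes it was called for CML37 (-2.49), CML38 (-2.09) and CML23 (-1.75). Named from the WRKY transcription factors list were WRKY47 (-2.67) and ZAP1 (1.12). The cytochrome P450 list gave CYP71B23 (-3.16), CYP71B36 (-1.69), CYP71B34 (1.37) and CYP71B35 (1.37). From the UDP glycosyltransferases list came UGT73D1 (-2.30). Among IQD genes it was called for IQD31 (1.95), IQD30 (1.59), IQD24 (1.57) and IQD22 (1.07). Named from the autophagy list were ATG8E (-2.58) and APG8H (-0.51). The beta-glucosidase list gave PYK10 (-2.71), BGLU33 (2.25), BGLU47 (2.14) and BGLU40 (1.96).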

How the results depend on the processing

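Alternatives were quantile normalisation, median centring, a filter on dim probe sets, array weights, a trended and robust prior, an adjusted p of 0.01, the replicate number as a block, each array left out, and, chosen after seeing the data, both arrays that stand apart left out. Of the 6268 called differences none changed sign under any setting that was run. The stricter cut-off, the dim filter, the trended prior and the replicate block leave the estimate as it was, so no sign could change there. The other settings reuse the arrays on which these probe sets were called. The number called ran from 5352 to 6305 with 1 array left out, and was 5447 without both arrays that stand apart. At an adjusted p under 0.01 there were 4057 called differences, 2044 of them higher in short days, and 1987 effects in short days. The classes then held 609 (up in long days, down in short days), 222 (the other crossing), 368 and 243 (up and down in short days only), and 2 and 13 (up and down in both). With array weights 45 probe sets rose in both, and with the trended prior 15. With 1 array left out the second crossing class ran from 368 to 592, rising in short days only from 479 to 887, falling in both from 24 to 43 and rising in both from 11 to 29. Between groups, correlations of deviations were -0.310 to 0.162 for equal replicate numbers and -0.355 to 0.421 for different numbers. Such correlations, from groups of 3 arrays, cannot show whether the samples were paired. With the replicate block 5770 differences were called, and the calls of SPPA (limma adjusted p = 0.0535), CYTC6A (0.0608) and APG8H (0.0523) were lost, and of no other named gene. CYTC6A was also lost with quantile normalisation (0.566, limma adjusted p = 0.0553) and median centring (0.580, 0.0639), and rbcL with the trended prior (0.0779). Differences that were not called turned sign for APS3 without replicate 1 of long-day wild type (-0.0033, and up to 0.147 without replicate 1 of long-day cs26) and for Fes1A, a co-chaperone of the heat shock list, without both arrays that stand apart (0.0417). Calls were gained in 17 cases, 7 of them by ATG8D (-0.61 to -0.92), 4 by SIR (0.51 to 0.69), 2 by CHLM and 1 each by EIN3, UGT74B1, PDF1.2b and AT5G48570. Signal over background limits dim probe sets, and 4.92% of the dimmest of 3 equal classes were called.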

Other observations

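Families taken by symbol from the annotation, later than the other lists, gave further values, and the genes below were chosen after their values were seen. Glutamate receptor-like channels, which carry calcium and wound signals, had 8 members measured. GLR1.4, GLR2.8 and GLR2.7 had called differences of -3.20, -2.38 and -1.72, with effects above 0 in long days and below 0 in short days, and GLR3.5 had 1.07. Of 8 aldehyde dehydrogenase genes, which detoxify aldehydes formed under stress, 4 had a called positive difference and none a negative one, the largest being 1.08 for ALDH7B4. TRM genes, whose proteins recruit the TON1 complex to microtubules, had 4 of 15 called higher and none lower, with 1.97 for TRM21 and 1.80 for TRM15. These shares stand beside 14.8% of all probe sets called higher, 12.7% lower and 27.6% in either direction, and that of the TRM genes is near the last.

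Ubiquitin-specific proteases had 5 of 12 called higher and 1 lower, with 1.77 for UBP15. U-box ubiquitin ligases had 1 of 9 called higher and 3 lower. PUB24, PUB23 and PUB22, which dampen the immune response, had differences of -1.80, -1.21 and -0.58, the last at a limma adjusted p of 0.0498. Among 15 tetraspanins, membrane proteins of which TET8 marks exosome-like vesicles, TET8 had -2.33 and TET3 had 1.63. BZIP60, the factor of the unfolded protein response in the endoplasmic reticulum, had -1.38. TINY2, a factor of the DREB group, had 2.36. Of 42 AGAMOUS-like MADS genes 1 was called, and of 18 expansins, which loosen cell walls, 2 were called higher and 3 lower. For these families too, the shares over all probe sets were 14.8% higher, 12.7% lower and 27.6% in either direction. That of the expansins is near the last.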
